A study of Mus musculus with 4 samples.

Results

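Cholinergic neurons were followed as single nuclei in 4 droplet libraries of mouse brain. A nucleus was taken as cholinergic from its own counts: at least 3 UMIs (unique molecular identifiers, each 1 counted RNA molecule) summed over Chat, Slc5a7 and Slc18a3, and at most 1 UMI summed over the glial, immune and endothelial genes Mog, Mag, Aqp4, Csf1r and Cldn5. The rule found 220 of 78728 nuclei. The levels of these 8 genes chose the nuclei and are therefore given as a description. All comparisons of these nuclei with other neurons are descriptions too, because the same counts that chose the nuclei enter every such comparison.

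The nuclei came from male C57BL/6J mice that received an adeno-associated virus (AAV9) into the cisterna magna at 4 weeks of age and were taken at 8 weeks. In the AAV-VEGF-C group the virus encoded full-length mouse VEGF-C, a growth factor of lymphatic vessels. In the AAV-CTRL group it encoded a soluble VEGFR-3 ectodomain fused to Ig that does not bind VEGF-C, so the controls carried a virus and its product as well. Tissue of 5 mice was pooled in each AAV group, and the same mice gave a cortical and a striatal library, so each of the 4 groups is 1 library. With 1 library per group no difference was tested: the 95% intervals below are exact, cover counting error only, and compare libraries rather than treatments.

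Acetylcholine is made from choline by choline acetyltransferase (Chat), loaded into synaptic vesicles by the vesicular acetylcholine transporter (Slc18a3), split in the cleft by acetylcholinesterase, and rebuilt from choline that the high-affinity choline transporter (Slc5a7) returns to the terminal. Cholinergic neurons are rare and lie in separate places. Interneurons of the striatum act locally, projection neurons of the basal forebrain reach cortex and hippocampus, neurons of the medial habenula reach the interpeduncular nucleus, and motor neurons lie in brainstem and cord. Some cortical interneurons with vasoactive intestinal peptide (Vip) also contain Chat.

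The genes of the rule are shown first because their arrangement bears on what their counts can separate. Chat (ENSMUSG00000021919) lies on the minus strand at chr14:32408203-32465989 (GRCm38). Slc18a3 (ENSMUSG00000100241) is a single-exon gene of the same strand at chr14:32462438-32464850, inside the first intron of Chat, between exon 1 (32465807 to 32465957) and exon 2 (32460725 to 32460913) of the transcript Chat-201. The antisense gene Gm2990 (plus strand, chr14:32465042-32483548) overlaps the start of Chat. Slc5a7 (ENSMUSG00000023945) lies apart, on the minus strand at chr17:54273590-54299034. The sources used here do not state whether intronic reads were counted, so reads of Slc18a3 and of unspliced Chat were not told apart. The stretches before the starts of the 3 genes are printed on the strand of each gene (RefSeq promoters, GRCm38.p6), for Chat without the bases that GENCODE already places inside the gene. Capitals mark TGACG or its reverse complement CGTCA, the half-site of cAMP-response elements. It was searched on both strands of the 250 bases before each RefSeq start.
Chat, chr14:32465990-32466159: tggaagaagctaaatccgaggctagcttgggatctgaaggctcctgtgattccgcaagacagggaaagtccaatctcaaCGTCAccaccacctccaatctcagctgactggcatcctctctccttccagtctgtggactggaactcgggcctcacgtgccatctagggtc
Slc18a3, chr14:32464851-32465100: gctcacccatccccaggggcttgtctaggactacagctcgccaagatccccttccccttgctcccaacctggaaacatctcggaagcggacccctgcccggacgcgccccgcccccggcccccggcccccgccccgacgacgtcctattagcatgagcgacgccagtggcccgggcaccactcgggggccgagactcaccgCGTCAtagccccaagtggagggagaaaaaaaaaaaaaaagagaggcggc
Slc5a7, chr17:54299035-54299284: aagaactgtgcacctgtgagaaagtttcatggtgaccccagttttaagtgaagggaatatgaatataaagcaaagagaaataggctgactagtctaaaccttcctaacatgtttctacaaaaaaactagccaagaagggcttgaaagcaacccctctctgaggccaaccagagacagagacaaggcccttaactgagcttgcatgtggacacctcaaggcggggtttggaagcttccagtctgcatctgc
The letters occurred 1 time before Chat, 171 bases from its RefSeq start, 1 time before Slc18a3, 49 bases from its start, and 0 times before Slc5a7. Of 32851 mouse promoter windows of this length 17.8% hold them, so a match is common and is given as a description.

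The nuclei that met the rule numbered 25 of 17168 in the cortex-labelled AAV-CTRL library, 37 of 20370 in the cortex-labelled AAV-VEGF-C library, 77 of 23724 in the striatum-labelled AAV-CTRL library and 81 of 17466 in the striatum-labelled AAV-VEGF-C library. Values for the 4 libraries follow in this order throughout. The libraries held 63165470, 78332657, 77253372 and 67773329 UMIs. Cholinergic nuclei had a median of 4716, 4780, 4976 and 5801 UMIs (960 to 16552 over all), against 3592, 3854, 3455.5 and 4166 in other neurons. Other neurons were the 45833 nuclei with at least 3 UMIs of Snap25, Syt1 and Rbfox3, the same limit on glial genes, and 0 UMIs of the rule's genes. The libraries went against their labels in part. Summed striatal projection neuron markers in other neurons were 1961, 1984, 1104 and 1117 CPM (the UMIs of a gene set per 1000000 UMIs of the same nuclei), higher under the cortex label, and excitatory cortical markers were 734, 765, 88.1 and 61.7. Libraries are therefore called by their labels, and no nucleus is placed in a region from its label. The 4 libraries shared 598 cell barcodes, 1 of them of a cholinergic nucleus, and 0 barcodes belonged to cholinergic nuclei in 2 libraries.

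Slc5a7 gave most of the counts that chose the nuclei. It held 1085 of the rule's UMIs (64.7%), Chat 468 (27.9%) and Slc18a3 125 (7.45%). Slc5a7 was detected in 212 of the 220 nuclei, Chat in 153 and Slc18a3 in 83. All 3 genes were found together in 49 nuclei, 2 of them in 130, and 1 in 41, of which 34 had Slc5a7 only. Levels, as UMIs of a gene per 1000000 UMIs of all cholinergic nuclei of a library (CPM), were 960, 990, 789 and 776 for Slc5a7. They were 470, 323, 330 and 367 for Chat. Slc18a3 stood at 111, 169, 50.2 and 101. Among oligodendrocyte nuclei, which should lack these genes, 2.26%, 0.575%, 3.22% and 3.68% had any such UMI and 0 had 3 or more, at median depths of 1652, 1696, 1756.5 and 2027 UMIs. At the edge of the rule, 63 nuclei had exactly 3 UMIs and 177 nuclei just outside it had 2. Of the first 39.7% and of the second 16.9% were typed as forebrain cholinergic-like or medial habenula-like, as described below. Among nuclei with 0 UMIs of the rule's genes and the same limit on glial genes, neurons or not, 1.5% were so typed. Median depths were 4791, 3425 and 3008 UMIs.

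The share of cholinergic nuclei among all nuclei was 0.146% (0.0943 to 0.215), 0.182% (0.128 to 0.250), 0.325% (0.256 to 0.405) and 0.464% (0.368 to 0.576). It was higher under the striatum label, 2.23-fold (1.40 to 3.65) in AAV-CTRL and 2.55-fold (1.71 to 3.87) in AAV-VEGF-C. The ratio was 1.25-fold (0.731 to 2.16) in AAV-VEGF-C over AAV-CTRL under the cortex label and 1.43-fold (1.03 to 1.98) under the striatum label. The interval of the cortex pair included 1 and that of the striatum pair only just cleared it. On the log2 scale the striatum pair stood at 0.52, and its interval included 0 once nuclei with any glial, immune or endothelial UMI were left out (0.47, -0.10 to 1.04). With at least 2 of the 3 rule genes the striatum pair stood at 0.795 (0.261 to 1.337). With a minimum of 5 marker UMIs the cortex pair stood at -0.10 (-1.07 to 0.87) and the striatum pair at 0.771 (0.135 to 1.416). At that minimum the region ratio in AAV-CTRL was 0.57 (-0.26 to 1.44). Median depth over all nuclei of the striatum-labelled libraries was 2272 UMIs in AAV-CTRL and 2647 in AAV-VEGF-C. With all nuclei thinned to 1000 UMIs and at least 1 marker UMI, the striatum pair stood at 0.289 (0.064 to 0.513). The cortex pair then stood at 0.006 (-0.357 to 0.372). With the same minimum and no thinning the pairs stood at 0.369 and 0.065. Leaving out the nuclei that Scrublet called doublets (0, 1, 4 and 2 of the cholinergic nuclei) left log2 ratios of 0.30 and 0.50 between AAV labels.

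**Figure D1:**
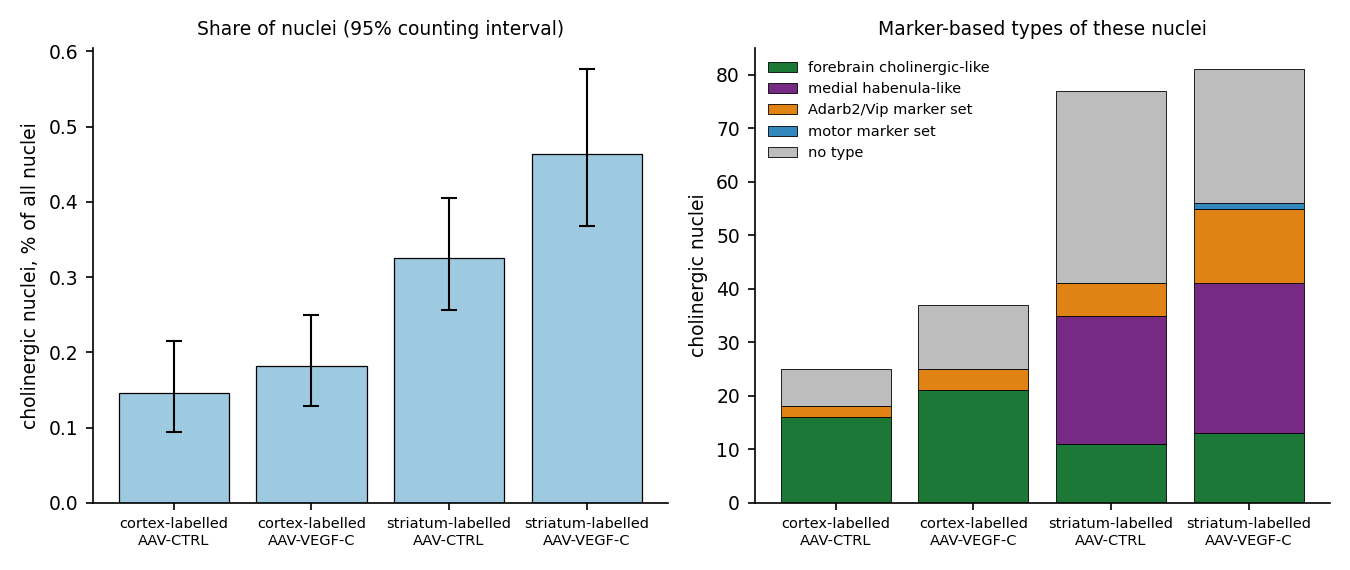
Left, cholinergic nuclei as a percent of all nuclei in each of the 4 libraries, with exact 95% counting intervals (1 library per group, no replicates). Right, the same nuclei counted by marker-based type: the cortex-labelled bars of 25 and 37 nuclei are mostly forebrain cholinergic-like and hold 0 medial habenula-like nuclei, whereas the striatum-labelled bars of 77 and 81 hold 24 and 28.

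Each nucleus was then typed by fixed marker lists, as the list with the most UMIs, given at least 2 UMIs from at least 2 genes. The forebrain cholinergic list included Lhx8, Gbx2, Isl1, Nkx2-1, Ecel1, Zic4 and Slc17a8, and the medial habenula list held Pou4f1, Tac2, Chrnb4, Chrna3, Gpr151 and Nwd2. Forebrain cholinergic-like nuclei numbered 16, 21, 11 and 13, and medial habenula-like nuclei 0, 0, 24 and 28. Under the cortex label 59.7% (46.4 to 71.9) of the 62 cholinergic nuclei were forebrain cholinergic-like and 0 were habenula-like, which allows a share of up to 5.78%. Under the striatum label 15.2% (9.98 to 21.8) of 158 were forebrain cholinergic-like and 32.9% (25.7 to 40.8) habenula-like. Untyped nuclei numbered 7, 12, 36 and 25. A list of Vip interneuron genes (Vip, Calb2, Htr3a, Prox1, Adarb2) took 2, 4, 6 and 14 nuclei. The 6 under the cortex label all held Vip (62 UMIs) and are called Vip interneuron-like. The 20 under the striatum label held 1 Vip UMI, 263 UMIs of Adarb2 in 19 nuclei and 18 of Calb2 in 15, so they stay unnamed and are called the Adarb2 set. Typing passed over some nuclei with forebrain markers. In striatum-labelled AAV-VEGF-C an untyped nucleus of 10854 UMIs held 14 forebrain and 14 Vip-list UMIs. A nucleus of the Adarb2 set (12527 UMIs) held 12 and 19. Under the cortex label an untyped AAV-VEGF-C nucleus (11884 UMIs) held 12 and 20. Adarb2 was at 177 and 517 CPM in cortex-labelled and striatum-labelled forebrain cholinergic-like nuclei, so the 59.7% and 15.2% depend on the typing. A single nucleus, in the striatum-labelled AAV-VEGF-C library, led with cranial motor neuron genes, and no nucleus led with genes of nasal tuft cells. Hox genes, which mark the hindbrain and cord, gave 0, 0, 1 and 1 UMIs over 40 genes.

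**Figure D2:**
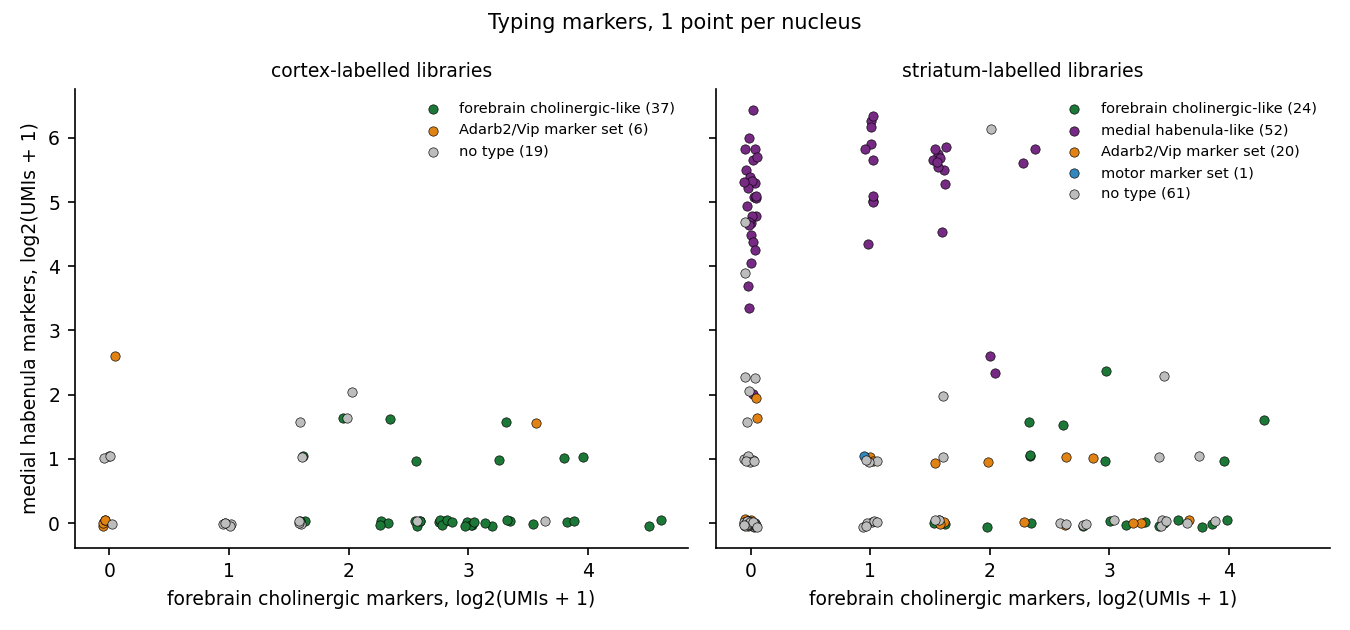
Each point is a cholinergic nucleus, placed by the log2 of its summed forebrain cholinergic marker UMIs plus 1 (horizontal) and its summed medial habenula marker UMIs plus 1 (vertical), with a small random offset. Most of the 52 medial habenula-like nuclei form an upper band in the striatum-labelled libraries, whereas no cortex-labelled nucleus holds more than 5 habenula marker UMIs.

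As typed here, the higher share under the striatum label lay in habenula-like and untyped nuclei and, in AAV-VEGF-C, in the Adarb2 set. Some untyped and Adarb2-set nuclei held forebrain markers, as given above. The forebrain cholinergic-like ratios that follow cover typed nuclei only, and do not show whether forebrain cholinergic nuclei shared in the higher share. Forebrain cholinergic-like nuclei per all nuclei stood at 0.498-fold (0.209 to 1.14) in striatum-labelled over cortex-labelled AAV-CTRL and 0.722-fold (0.332 to 1.51) in AAV-VEGF-C, with intervals that include 1. Untyped nuclei were 3.72-fold (1.63 to 9.91) and 2.43-fold (1.18 to 5.31) higher, and the Adarb2 set in AAV-VEGF-C was 4.08-fold (1.28 to 17) above the nuclei of the same markers under the cortex label. Without the habenula-like nuclei the log2 ratio of the whole share was 0.62 (-0.09 to 1.37) in AAV-CTRL and 0.74 (0.11 to 1.39) in AAV-VEGF-C, compared with 1.16 and 1.35, and that of the striatum pair between AAV labels was 0.44 (-0.14 to 1.02). Between AAV labels of the striatum pair, habenula-like nuclei stood at 1.58-fold (0.886 to 2.86), forebrain cholinergic-like nuclei at 1.61-fold (0.663 to 3.96), untyped nuclei at 0.943-fold (0.543 to 1.62) and the Adarb2 set at 3.17-fold (1.14 to 10.1), the last from 14 and 6 nuclei.

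Slc10a4, Prima1, Acly and Ache were higher in cholinergic nuclei than in other neurons of the same library in all 4 libraries, while the other genes of acetylcholine handling did not pass the rule given next. A gene was counted as higher or lower when its level differed by at least 2-fold, its interval was clear of 1 and it had at least 20 UMIs. By this rule 710 of 21841 genes (3.25%) were higher in cholinergic nuclei than in other neurons and 738 (3.38%) were lower, and the median log2 ratio over all genes was 0.22 (UMIs under 3 raised to 3). These shares are the background for the lists that follow. The calls pool the 4 libraries, which gave 25, 37, 77 and 81 cholinergic nuclei and 12099, 14197, 11388 and 8149 other neurons. A pooled ratio can therefore differ in direction from the ratios within libraries. Intervals treat UMIs as independent, although they come from few nuclei. Of the 10 genes of acetylcholine handling beyond the rule, 4 were higher and 0 lower, with a median log2 ratio of 0.18 (0.38 with Colq, at 0 UMIs, raised to 3 counts). Slc10a4, an orphan transporter of cholinergic vesicles, had 180, 179, 66.9 and 85.6 CPM against 0.803, 0.752, 5.15 and 5.96 in other neurons (log2 5.21, 4.93 to 5.48). Prima1, the anchor of acetylcholinesterase in membranes, had 339, 164, 115 and 171 against 4.24, 5.09, 5.88 and 5.6 (5.05, 4.83 to 5.26). For both genes the lowest cholinergic level lay above the highest level of other neurons. Acly, which supplies acetyl-CoA, was at 269, 209, 170 and 179 against 27.0, 30.3, 39.6 and 40.4. Acetylcholinesterase (Ache) was at 228, 333, 105 and 125 against 20.8, 22.5, 69.2 and 72.9, and its distance from other neurons was smaller under the striatum label. The choline kinases Chka and Chkb and the choline transporter-like genes Slc44a1 and Slc44a2 had log2 ratios between -0.13 and 0.28.

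**Figure D3:**
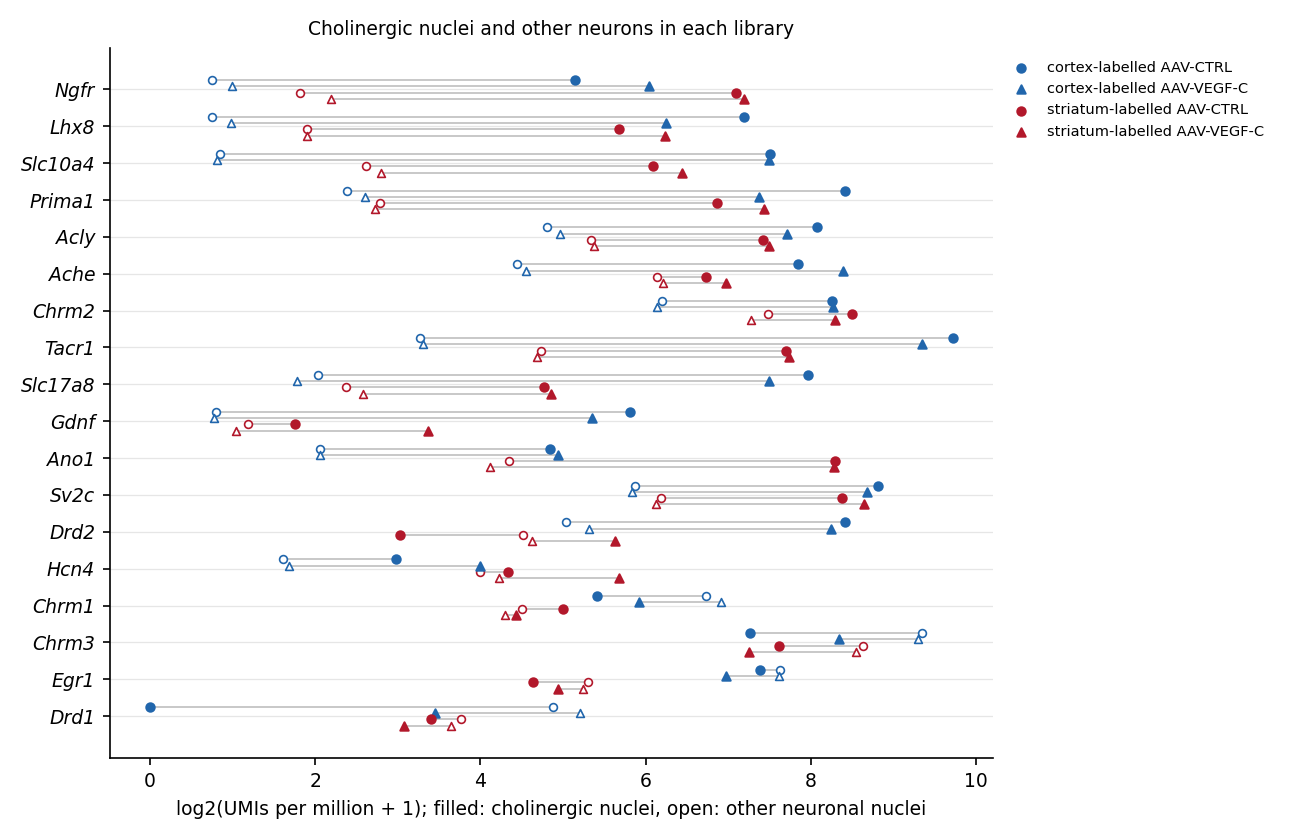
For 18 genes the level in cholinergic nuclei (filled) and in other neuronal nuclei (open) of the same library is drawn as log2 of CPM plus 1, blue for cortex-labelled and red for striatum-labelled libraries, circles for AAV-CTRL and triangles for AAV-VEGF-C. Ngfr, Lhx8, Slc10a4 and Prima1 sit to the right of other neurons in all 4 libraries, whereas Drd2 does so in 3 of them.

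Neurotrophic receptors and forebrain transcription factors had some of the largest ratios. Ngfr, the low-affinity neurotrophin receptor, had 34.5, 64.6, 136 and 145 CPM against 0.683, 0.997, 2.52 and 3.56 (log2 6.05), in 1, 5, 17 and 20 nuclei. It was thus higher under the striatum label in cholinergic and other neurons alike. Of 14 neurotrophic receptors and ligands 5 were higher, including Ngfr, Gfra1, Ret and Gdnf, and 3 lower, including Gfra2 and Ntf3, with a median of -0.27. Gdnf, which encodes glial cell line-derived neurotrophic factor, stood at 55.3, 39.8, 2.39 and 9.31 against 0.743, 0.719, 1.28 and 1.06. Lhx8, the homeodomain factor that sets the cholinergic fate in the forebrain, had 145, 74.6, 50.2 and 74.5 against 0.683, 0.981, 2.74 and 2.74 (5.49, 5.14 to 5.82). Of 14 transcription factors with enough counts 8 were higher (Lhx8, Isl1, Nkx2-1, Zic1, Zic2, Zic4, Pou4f1 and Irx2) and 1 lower, with a median of 1.56. Lhx8, Isl1, Nkx2-1, Zic4 and Pou4f1 are also typing markers.

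Beyond the lists, 755 of 21841 genes were higher in all 4 libraries with an interval clear of 1 in the pool. The 20 with the largest ratio included Gm2990, Insrr, Fhl5, Tpbgl, C130060K24Rik, Gm29374, Gm11342, Gm14114, Tex15 and Abcc6, beside genes named elsewhere here. Gm2990, the antisense neighbour of Chat, had 20.7, 19.9, 12 and 14.9 CPM against 0.141, 0.196, 0.133 and 0.336 (log2 6.30, 5.44 to 7.12). Only 20 UMIs lie behind it, and whether strand was used in the counting is not given in the sources used here, so its reads may not be told apart from those of Chat. Insrr, an orphan receptor of the insulin receptor family, had 27.6, 19.9, 9.56 and 14.9 against 0.120, 0.0654, 0.708 and 0.542. Sv2c, a vesicle protein of basal ganglia neurons, was at 449, 408, 330 and 400 against 57.5, 56.2, 71.5 and 68.7 (2.62). It was the 1 higher gene of 4 vesicle genes, whose median was 0.40.

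Receptors for acetylcholine and for modulators differed in both directions. Of 5 muscarinic receptors Chrm2, the inhibitory autoreceptor of cholinergic neurons, was higher at 304, 308, 361 and 313 CPM against 72.1, 69.6, 178 and 154 (log2 1.54, 1.40 to 1.68). Chrm3 (-1.46) and Chrm1 (-1.18) were lower, Chrm4 gave 0 UMIs and Chrm5 gave 1. The list's median was -1.18 (1.54 with receptors under 3 UMIs raised to 3 counts). Of 16 genes of the nicotinic list (receptor subunits and Lynx1) with enough counts 3 were higher (Chrna3, Chrnb3 and Chrnb4) and 0 lower. The median was -0.21 (1.66 with genes under 3 UMIs raised to 3 counts). All 3 higher genes belong mainly to the habenula-like nuclei described below. Of 17 modulator receptors 5 were higher, 2 (Drd1 and Htr2a) lower, and the median was -0.35. Tacr1, the substance P receptor of striatal cholinergic interneurons, had 843, 651, 206 and 212 against 8.61, 8.85, 25.6 and 24.7 (4.46, 4.32 to 4.6). Tacr3, the receptor of neurokinin B, had 89.8, 64.6, 21.5 and 26.1 against 2.37, 2.27, 10.5 and 11. Drd5, a dopamine receptor of the D1 class, had 41.5, 24.9, 7.17 and 5.58 against 1.79, 2.04, 3.61 and 3.15. Drd2, a dopamine receptor that inhibits release, had 339 and 303 against 31.7 and 38.8 under the cortex label, but 7.17 and 48.4 against 21.8 and 23.6 under the striatum label. Oprd1, the delta opioid receptor, was also higher under the cortex label, at 111, 99.5, 26.3 and 39.1 against 20.6, 20.3, 9.89 and 7.31.

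Cotransmitter genes split in the same manner. Of 18 genes 6 were higher (Slc17a8, Nos1, Gal, Tac2, Vip and Uts2) and 3 lower (Slc17a7, Tac1 and Cck), with a median of -0.18. The excitatory cortical markers, which include Slc17a7, summed to 228, 333, 127 and 98.7 CPM against 734, 765, 88.1 and 61.7 in other neurons. Their sum was thus lower under the cortex label and higher under the striatum label. Slc17a8, the vesicular glutamate transporter of striatal cholinergic interneurons and a typing marker, had 249, 179, 26.3 and 27.9 CPM against 3.09, 2.45, 4.18 and 4.96 (log2 4.42). Slc17a6, the glutamate transporter of subcortical neurons, had 0, 14.9, 112 and 96.8, and was thus found almost only under the striatum label, where other neurons had 158 and 191. Gad2, an enzyme of GABA synthesis, had 193, 169, 148 and 171 against 95.6, 100, 209 and 211. Of 17 pacemaking and afterspike channels 2 were higher (Hcn4 at 1.87 and Hcn3 at 1.48, both hyperpolarisation-activated channels), Kcnq5 was lower (-1.22), and the median was 0.11. Among 7 immediate early genes 0 were higher and 2 lower, Egr1 (-1.15) and Arc (-1.16), with a median of -0.97 (-0.90 with genes under 3 UMIs raised to 3 counts). Of 10 VEGF genes Nrp2 (1.28) and Pgf (1.28, 10 UMIs) were higher and Flt1 (-1.29, 13 UMIs) lower, with a median of -0.15. Flt4, the receptor of VEGF-C, gave 1, 1, 0 and 1 UMIs, and Kdr gave 1, 0, 0 and 3.

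Astrocyte markers were lower in cholinergic nuclei than in other neurons of each library, and oligodendrocyte markers lay nearer to them. Summed oligodendrocyte markers were 380, 199, 870 and 705 CPM against 472, 403, 1016 and 1002 in other neurons, and astrocyte markers 366, 448, 263 and 274 against 1043, 1124, 531 and 483. Of the 5 oligodendrocyte markers 3 had enough counts and 0 passed in either direction, and 18, 23, 76 and 80 cholinergic nuclei held at least 1 UMI of them. The rule itself limits Mog, Mag and Aqp4. Oligodendrocyte markers thus moved with the region label in cholinergic and other nuclei alike, and their part in the region differences below was not tested.

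Between region labels many genes differed, in nuclei that also differed in type. Under the striatum label 440 of 5533 genes (7.95%) were higher and 235 (4.25%) lower in AAV-CTRL, and 395 (5.88%) higher and 293 (4.36%) lower of 6713 in AAV-VEGF-C. In the same direction with both intervals clear of 1 were 242 genes higher and 179 lower, of 5380 with enough counts in both comparisons. The pair of comparisons shares no library. Leading the higher genes were Kcnma1, Nwd2, Scube1, Kctd8, Robo3, Syt9, Tcf7l2, Trpm3, Tspan18 and Vav3. Kcnma1, the large-conductance calcium-activated potassium channel, had 421, 462, 5623 and 5073 CPM (log2 3.74 and 3.46). Nwd2, a habenula typing marker, had 62.2, 49.7, 2328 and 1759 (5.23 and 5.15). Scube1 had 6.91, 9.95, 473 and 493, from 24 and 29 nuclei under the striatum label. For all 3 genes the levels of the striatum-labelled libraries were far above those of the cortex-labelled ones. The leading lower genes included Drd2, Slc17a8, Kcnt2, Cacna2d3, Nrgn, Mef2c, Prkca, AC129186.1 and 4930590L20Rik. Prkca, a protein kinase C, had 2232, 1208, 337 and 246 (-2.73 and -2.30). Nrgn and Mef2c, at 567, 622, 71.7 and 78.2 and at 380, 497, 86.1 and 130, are abundant in cortical excitatory neurons, and they were also higher in other neurons of the cortex-labelled libraries (Nrgn 768, 850, 94.1 and 73.2). Without the habenula-like nuclei 500 and 525 genes passed the rule in place of 675 and 688, and these included 57.8% and 59.9% of the first sets.

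Medial habenula-like nuclei (52) had the highest level of each of the 10 leading striatum-label genes among the 7 sets of nuclei. Kcnma1 was at 15309 CPM in them, in 52 of 52 nuclei, against 676 in forebrain cholinergic-like nuclei of the same libraries and 1369 in untyped ones. Trpm3, a cation channel, was at 5900 against 418 and 960, and Scube1 at 1575 against 0 and 41.7. Gfra1, a receptor of GDNF-family ligands, was at 1252 against 92.8 and 158, and Nrp2, a co-receptor of VEGF-C and semaphorins, at 737 against 119 and 56.6. The calcium-activated chloride channel Ano1 was at 923 against 26.5 and 71.6. None of these 6 genes was used for typing. Chrnb3, a nicotinic subunit outside the lists used for typing, was at 137 against 0 and 17.9. Among typing markers Chrna3 was at 288 and Chrnb4 at 137, the subunits of the main habenular nicotinic receptor. Tac2, which encodes neurokinin B, was found in 37 striatum-labelled nuclei, and 35 of these also held Nwd2. Slc10a4 was low in habenula-like nuclei, at 10.5 against 152 and 89.4, as were Ache (42.1 against 119 and 140) and Slc5a7 (467 against 935 and 954), while Chat was at 351 against 471 and 286. The glutamate transporters Slc17a7 (277) and Slc17a6 (116) were both present. Without the habenula-like nuclei Kcnma1 stood below other neurons (log2 -0.60, from 1.63), as did Nrp2 (-0.67, from 1.28). Tac2 in AAV-VEGF-C then stood at -2.15 (from 1.77) between region labels. Because Tac2 is a typing marker, leaving out these nuclei removes its UMIs by construction, and few remain, so that value is no separate result.

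**Figure D4:**
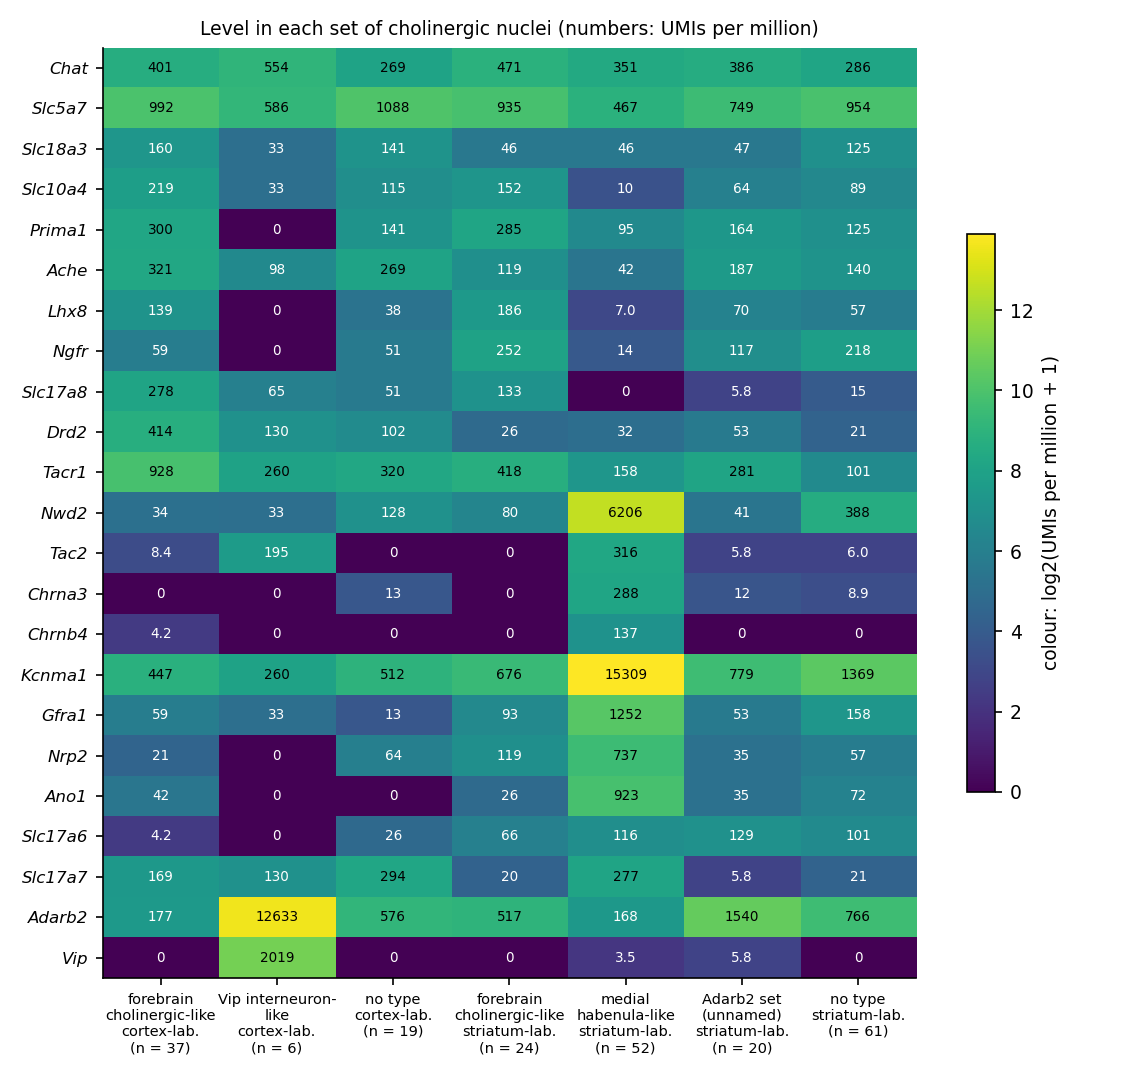
Level of 23 genes (rows, CPM printed in each cell, colour on a log2 scale of CPM plus 1) in 7 sets of cholinergic nuclei (columns, with the number of nuclei). Kcnma1, Nwd2, Gfra1, Nrp2 and Ano1 peak in the habenula-like set, Drd2 and Tacr1 in the cortex-labelled forebrain cholinergic-like set, and Ngfr in the striatum-labelled forebrain cholinergic-like set; Chat, Slc5a7, Slc18a3 and the typing markers helped to choose the sets.

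Forebrain cholinergic-like nuclei, present under both labels, differed between them in genes that typing did not use. The sets were chosen from the same counts, so these values are a description too. The 37 cortex-labelled and 24 striatum-labelled nuclei had median depths of 6340 and 6213 UMIs and close levels of the typing marker Lhx8 (139 and 186 CPM). Drd2 was at 414 and 26.5, a log2 ratio of striatum-labelled over cortex-labelled of -3.96 (-5.87 to -2.56), from 26 of 37 and 3 of 24 nuclei. Tacr1 was at 928 and 418 (-1.15, -1.58 to -0.74). Prkca (-1.66) and Kcnt2 (-1.61) were lower as well. Slc17a8, a typing marker, was at 278 and 133 (-1.07). Ache was at 321 and 119 (-1.43), while Prima1 (300 and 285), Acly (253 and 239) and Sv2c (506 and 597) had intervals that include a ratio of 1. Ngfr went the other way, at 59.1 and 252 (2.09, 1.18 to 3.09), from 4 of 37 and 12 of 24 nuclei. Nrp2 (2.50) and Slc17a6 (3.97, 1.16 to 9.41, from 1 and 10 UMIs) were higher too. The glutamate transporter and peptide genes Slc17a7 (-3.09), Cck (-4.78) and Npy (-4.10) were lower, each from 3 or fewer UMIs under the striatum label. Other neurons of the cortex-labelled libraries also held more Slc17a7 (427, 472, 59.6 and 44.9), and the part of free RNA in these differences was not tested.

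**Figure D5:**
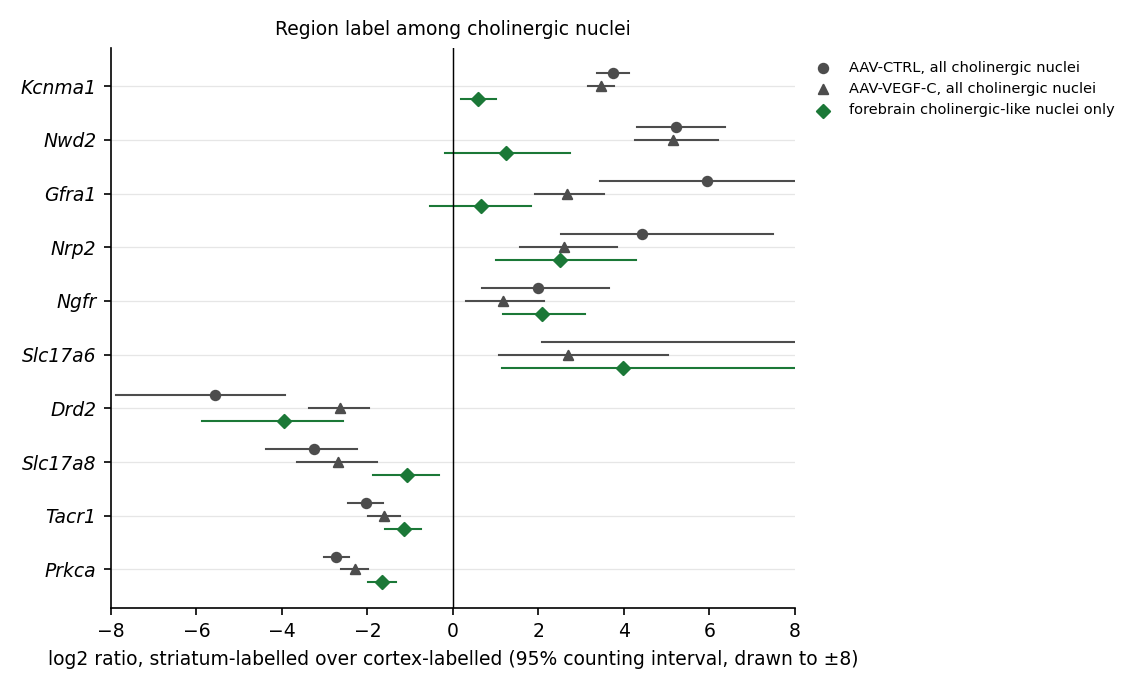
Log2 ratio of striatum-labelled over cortex-labelled cholinergic nuclei for 10 genes, with 95% counting intervals, in AAV-CTRL (circles) and AAV-VEGF-C (triangles) over all cholinergic nuclei and in forebrain cholinergic-like nuclei of both AAV labels together (green diamonds). A ratio is drawn only where both sides had UMIs. For Kcnma1 the green diamond is nearer to 0 (0.60) than both other points, whereas Drd2 stays low (-3.96) and Ngfr high (2.09).

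Single nuclei showed which receptor genes occurred together. Under the cortex label Slc17a8 was found in 34 nuclei and Drd2 in 32, with 27 of 62 nuclei holding both. Under the striatum label 13 and 15 of 158 held them and 3 held both. Lhx8 and Ngfr shared 20 nuclei under the striatum label (30 with Lhx8, 37 with Ngfr) and 1 under the cortex label (19 and 6). Ngfr and the habenula marker Nwd2 shared 9 of 158 nuclei, although 81 held Nwd2. Detection depends on depth, so these counts describe the nuclei and are given without a test.

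The untyped nuclei were members through the 3 rule genes, so their levels of these genes were set by the rule. They were a mixed set. Under the striatum label 1 untyped AAV-CTRL nucleus of 7258 UMIs held 68 habenula marker UMIs, all of Nwd2. Another, in AAV-VEGF-C (10854 UMIs), held 14 forebrain marker UMIs. The 61 untyped nuclei under this label had Slc5a7 at 954, Chat at 286 and Slc18a3 at 125 CPM. Among genes outside the rule they had Ngfr at 218 (18 nuclei), Nos1 (nitric oxide synthase) at 212 (16 nuclei) and Chrm2 at 426. The 19 untyped cortex-labelled nuclei had Slc5a7 at 1088, Chat at 269 and Tacr1 at 320. The Adarb2 set (20) was deeper, with a median of 8995.5 UMIs, and held Chrm2 at 539 and Ngfr at 117 beside Adarb2 at 1540. The 6 Vip interneuron-like nuclei had Chat at 554, Slc5a7 at 586, Adarb2 at 12633 and Vip at 2019, and 0 UMIs of Lhx8, Ngfr and Prima1.

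Between AAV labels mitochondrial genes led the genes that were higher in AAV-VEGF-C under both region labels, and Prkca and Hip1 were among the lower ones. Under the cortex label 256 of 3607 genes passed the rule (7.10%), 161 higher and 95 lower in AAV-VEGF-C. Under the striatum label 230 of 7780 did (2.96%), 135 higher and 95 lower. In both labels in the same direction, with intervals clear of 1, 41 of 3582 genes were higher and 24 lower. Of the 10 that led the higher genes 6 were mitochondrial. The gene mt-Co3, a cytochrome oxidase subunit, had 1423, 2994, 1982 and 3369 CPM (log2 1.07 and 0.77). All 13 mitochondrial genes together took 0.769%, 1.32%, 0.891% and 1.37% of the UMIs of cholinergic nuclei and 0.587%, 0.832%, 0.726% and 0.984% of those of other neurons, so the AAV-VEGF-C libraries held more of them in both, and the part of nuclear quality in this difference was not tested. The remaining 4 were Kcnip4, Kirrel3, Ndst4 and Sst. For Kirrel3, a synaptic adhesion gene (log2 0.94 and 0.61), the cortex-label ratio was -0.91 when only nuclei with at least 5 marker UMIs were kept. Kcnip4, a partner of potassium channels, had 2639, 4451, 1934 and 2774 (0.75 and 0.52). Sst, which encodes the peptide somatostatin, was at 69.1, 249, 21.5 and 123, but 36 and 45 of its 50 and 66 UMIs in AAV-VEGF-C lay in 1 nucleus each.

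The 10 genes that led the lower ones were Prkca, Cdh13, Nrg1, Hip1, Il1rapl2, Cadm2, Efna5, Ehbp1, Kcnq1ot1 and A330008L17Rik. Prkca had 2232, 1208, 337 and 246 (log2 -0.89 and -0.46), and Nrg1, the ErbB ligand neuregulin, had 3648, 2745, 2470 and 2100 (-0.41 and -0.23). Hip1, an endocytic adaptor, had 200, 64.6, 110 and 37.2 (-1.63 and -1.56), from 13, 9, 28 and 15 nuclei. It was the 1 gene of the 10 that passed 2-fold under both labels. Il1rapl2 had 587, 109, 440 and 281, with 62 of the first library's 85 UMIs in 1 nucleus. In other neurons Prkca and Hip1 had 461, 425, 271 and 220 and 79.7, 77.1, 79.8 and 68.9.

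Of the genes of acetylcholine handling, Prima1 alone passed the rule between AAV labels, under the cortex label. Of the 6 with enough counts under the cortex label 0 were higher and 1 (Prima1, -1.05, -1.73 to -0.38) lower, with a median of -0.19. Of the 7 under the striatum label 0 passed in either direction, with a median of 0.18. The medians over all genes, raised to 3 counts likewise, were 0.07 and -0.01. Slc10a4 stood at -0.01 (-0.77 to 0.78) and 0.36 (-0.35 to 1.09), and Ache at 0.55 (-0.08 to 1.20) and 0.25 (-0.32 to 0.83). Several of these intervals are wide and include 2-fold ratios. Of 14 neurotrophic genes 0 passed under either label, with 4 and 8 having enough counts. Of the modulator receptors 0 of 8 passed under the cortex label, and 2 of 11 were higher under the striatum label, Drd2 (2.76, from 3 and 26 UMIs) and Hrh3. Of the 26 Drd2 UMIs 13 lay in 2 nuclei, and 1 lay in forebrain cholinergic-like nuclei. Among VEGF genes 0 had enough counts under the cortex label. Under the striatum label Nrp1, a VEGF co-receptor, was higher at 43.0 and 101 CPM (1.22, 0.43 to 2.08), from 13 and 21 nuclei. Vegfc gave 0, 0, 2 and 9 UMIs, 5 of the 9 in 1 nucleus, too few to tell whether the level differed between AAV labels, and whether the construct would be counted as Vegfc is not stated.

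Cotransmitter genes had more calls between AAV labels than the other lists under the cortex label. Of 11 with enough counts 5 were higher in AAV-VEGF-C (Nos1, Vip, Penk, Sst and Npy) and 0 lower, with a median of 1.00, beside the 7.10% of all genes that passed in either direction. These UMIs came from few nuclei. In AAV-VEGF-C 1 forebrain cholinergic-like nucleus of 4760 UMIs held 36 of the 50 Sst UMIs, 17 of the 25 of Npy, the gene of neuropeptide Y, and 13 of the 35 of Nos1, and a second, untyped nucleus held 12 of Nos1. Penk, which encodes the enkephalin precursor, had 10 of 17 UMIs in 1 nucleus, and the Vip UMIs came from 2 and 4 nuclei. Under the striatum label 2 of 14 were higher, Gal (5 and 20 UMIs) and Sst, and 0 lower, with a median of 0.18. Of the muscarinic receptors Chrm3 was higher under the cortex label at 152 and 323 CPM (1.09, 0.37 to 1.86), from 7 and 16 nuclei, and stood at -0.36 (-0.82 to 0.10) under the striatum label. Of the pacemaking and afterspike channels Kcnq5 was higher and Kcnn2 lower under the cortex label, of 14 with enough counts (Kcnq5 stood at -0.42 in nuclei with at least 5 marker UMIs), and Hcn4 was higher under the striatum label, of 16. Of the nicotinic list Chrnb3 alone, of 6 genes, passed under the striatum label, and was lower.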

How the data were processed

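Nuclei of frozen, pulverized mouse tissue were profiled by droplet 3′ single-nucleus RNA sequencing (10x Genomics v3). The authors deposited, per library, unnormalized UMI counts per gene and nucleus, made with Cell Ranger (5.0.1 per the file headers, 5.1.1 in the submitters' processing notes) on mm10. Whether intronic reads or strand entered the counting is not given in the sources used here.

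Samples were grouped by the region and AAV in their labels, 1 library per group. All 78728 nuclei were kept. UMIs of the cholinergic nuclei of a library were summed and divided by their total, per 1000000. Shares have exact Clopper-Pearson and ratios exact conditional binomial 95% intervals, which cover counting error only. UMIs of 1 nucleus are not independent replicates, so no p-value is given. A gene was tested with at least 20 UMIs summed over both sides. The code was tested on simulated data. Doublets were called with Scrublet (scanpy 1.11.5, expected rate 8%) and kept, with an alternative without them. Python 3.11.15, numpy 2.4.6, scipy 1.17.1, pandas 2.3.3 and matplotlib 3.10.9 were used.

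Named genes were all members of the lists, the 20 with the largest ratio against other neurons among those higher in 4 of 4 libraries, and, for each label, the 10 each way whose interval bound lay farthest from 0 with both intervals clear in 1 direction. The gene pairs counted in single nuclei were chosen after their values were seen. The rule, the members and the lists were chosen with earlier results of these data known. Alternatives were the marker and glial limits, the number of marker genes, doublets, depth (thinning to 1000 UMIs), the denominator, the typing minimum and the count minimum. A few genes of the lists are not reported here.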

Additional observations from a re-analysis of the deposited data

Results flagged for a closer look

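In 5 genes of the lists the ratio of AAV-VEGF-C over AAV-CTRL in cholinergic nuclei had opposite signs under the cortex and striatum labels, with both counting intervals clear of 0. The difference between the labels was not tested, since each group is 1 library. For Grm5, a metabotropic glutamate receptor at 511, 890, 1052 and 899 CPM (UMIs per 1000000) in the order given above, the log2 ratios were 0.80 and -0.23. Those of Kcnd2, a subunit of A-type potassium channels at 1596, 2014, 3509 and 2735, were 0.34 and -0.36. Those of Kcnq5, an M-current channel at 311, 646, 469 and 363, were 1.06 and -0.37. Among nuclei with at least 5 marker UMIs the cortex-label ratio of Kcnq5 was -0.42, turned in sign. Nos1, at 6.91, 174, 146 and 89.4, had 4.66 and -0.71, from 1 and 35 UMIs under the cortex label, of which 25 lay in 2 nuclei. Prima1, at 339, 164, 115 and 171, had -1.05 and 0.58.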

How the results depend on the processing

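No paired analysis was possible because each group is 1 library, and for the same reason no replicate could be left out. The pooled share of cholinergic nuclei, 0.279%, was 0.504% with a minimum of 2 marker UMIs, 0.163% with 5, 0.206% with no glial, immune or endothelial UMI, 0.329% without that limit and 0.227% with at least 2 of the 3 genes. It was 1.22% after thinning to 1000 UMIs (at least 1 marker UMI, leaving out 642, 709, 1537 and 425 shallower nuclei) and 2.43% unthinned, 0.451% of neuronal nuclei, and 0.213% without habenula-like nuclei, where the log2 region ratio in AAV-VEGF-C was 0.74 in place of 1.35. Leaving out habenula-like nuclei was one of 2 alternatives chosen after seeing the data. Forebrain cholinergic-like nuclei were 33.6% and 9.61% of the cortex-labelled and striatum-labelled nuclei at a minimum of 2 marker UMIs, and 75.8% under the cortex label when typed from 1 UMI. Without a count minimum 432 and 392 genes passed between AAV labels under the cortex and striatum labels, and 84 and 56 with a minimum of 50 UMIs, in place of 256 and 230. With 50 UMIs 361 and 360 passed between region labels in AAV-CTRL and AAV-VEGF-C, in place of 675 and 688. The cause of these shifts in count is the number of genes tested. Without habenula-like nuclei the striatum-label AAV calls were 103 higher and 134 lower, with 49.6% of the calls kept. At a minimum of 5 marker UMIs the ratio between AAV labels of the cortex pair turned for Kcnq5 (-0.42), Kirrel3 (-0.91) and Trpm3 (1.42), and Gja1 turned against other neurons of like depth (0.20). The cause was not tested. Without habenula-like nuclei the ratio against other neurons turned for Kcnma1 (-0.60), Kctd8 (-0.17), Nrp2 (-0.67), Robo3 (-0.83), Scube1 (-1.63), Trpm3 (-0.61) and Vav3 (-0.41), and that of Tac2 between region labels in AAV-VEGF-C was -2.15. Since Tac2 is a marker by which the left-out nuclei were typed, its UMIs were removed by construction. The other added alternative, leaving out mitochondrial genes, turned none of the 245 ratios it was run on, and 0 turned without called doublets (257).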
